A study of Rattus norvegicus with 24 samples.

Results

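The genes described here handle ammonia, glutamine and glutamate in rat cerebellum. They are 9 genes of the 18161 measured, and they were chosen by symbol from the annotated expression table. Each of the 9 had 1 probe set, so no choice among probe sets was needed. The study placed a portocaval anastomosis (PCA), a shunt that lets portal blood bypass the liver, in Sprague-Dawley rats as a model of hepatic encephalopathy. It profiled 24 cerebellum arrays in 5 groups: PCA with ammonia given as ammonium acetate (PCA+NH3, n = 5), PCA with lipopolysaccharide (PCA+LPS, n = 5), PCA with both (PCA+NH3+LPS, n = 4), PCA with no infusion named in its labels (PCA, n = 5) and sham surgery (Sham, n = 5). All 4 PCA groups were sampled 6 months after surgery, and the labels give no such time for Sham. The infused rats received 10 infusions spaced 2 weeks apart, with ammonia at 20 µl/min over 3 h and LPS, a bacterial cell wall component, at 5 mg/kg. The labels give neither age nor sex and do not say whether PCA and Sham rats received vehicle. The labels also do not say that numbered samples are separate animals, so p-values measure only the spread between these samples.

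The brain has no complete urea cycle, and it binds ammonia mainly by making glutamine from glutamate in astrocytes. Astrocytes take up synaptic glutamate through transporters of the Slc1 family and export glutamine through system N carriers, and neurons take that glutamine up through system A carriers. Glutamate dehydrogenase and the aspartate aminotransferases move amino groups between glutamate, ammonia and aspartate. These steps are the textbook route by which a high ammonia load reaches glutamatergic signalling in hepatic encephalopathy.

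Values are log2 expression made with RMA by the authors, in steps of 0.1, so a difference of 1 is a doubling of signal. Group values are means ± SD over arrays, and precision depends on how many arrays a group has and on the spread of each gene. Granule cell and Purkinje cell markers were present on all arrays, with the granule cell gene Gabra6 between 11.8 and 12.4 and the Purkinje cell gene Pcp2 between 10.3 and 10.7. Array 1 of the Sham group stood apart. Its level of Slc17a6, a vesicular glutamate transporter of brainstem and deep nuclei, was 8.6 against a mean of 5.04 over all arrays, and Slc6a5, the glycine transporter of inhibitory brainstem neurons, was 9.1 against 7.50. The mean of 8 brainstem markers, each centred on its own mean over the 24 arrays, was 1.33 on this array and lay between -0.32 and 0.63 on the others. Differences from Sham are therefore given with and without it, for every member over the 4 PCA groups together and for Slc38a3 in each PCA group. In bulk tissue, fewer cells of a type and less RNA per cell cannot be told apart.

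None of the 9 genes differed between groups at an adjusted p under 0.05 in any of 11 contrasts (limma across all genes, Benjamini-Hochberg adjustment), and the smallest adjusted p among the 99 values was 0.588. The contrasts were each PCA group against Sham, the 4 PCA groups together against Sham, each infused group against PCA, and 3 contrasts within the PCA groups for ammonia, LPS and their interaction. Of all genes, 0.00551% passed for the 4 PCA groups together against Sham, 0.033% for PCA+LPS against Sham, 0.0165% for ammonia, 0.0165% for LPS and 0% in each of the other 7 contrasts. A moderated F-test over the 5 groups called 0 of 9 as well, against 0.011% of all genes. Only 4 of the 99 values had an unadjusted p under 0.05, and all 4 were of Slc38a3 in contrasts with Sham. Of all genes, between 3.09% and 7.48% had an unadjusted p under 0.05 in a contrast, so 4 of 99 is near the background. The other 8 genes differed by at most 0.16 on the log2 scale in any contrast, with an unadjusted p of 0.157 or more.

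**Figure D1:**
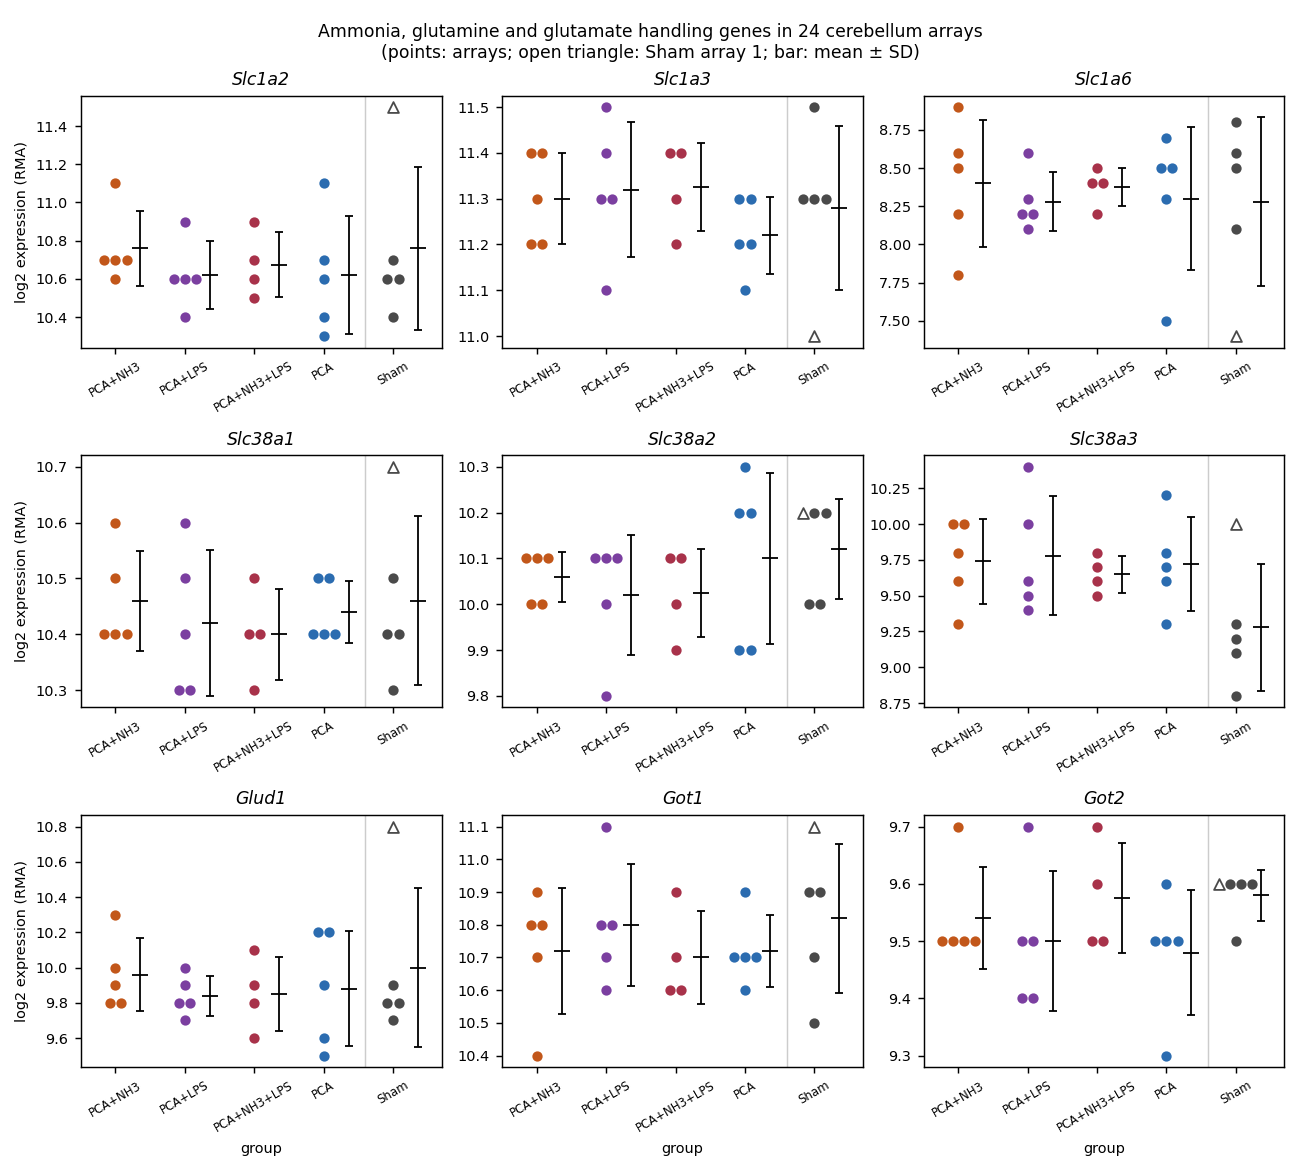
Log2 expression (y axis) of the 9 genes in each of the 24 arrays, by group (x axis), with the mean and SD beside the points and Sham array 1 as an open triangle. Slc38a3 in the 4 PCA groups lies between 9.3 and 10.4, above the Sham mean of 9.28 in all 19 arrays. At its lowest, 9.3, it exceeds that mean by less than the rounding step of 0.1. Only 2 of the 19 lie above every Sham array (8.8 to 10.0), and the groups of the other genes overlap broadly too.

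Slc38a3 encodes the system N carrier SNAT3, through which astrocytes release glutamine. It was at 10.0, 9.8, 10.0, 9.3 and 9.6 in PCA+NH3. It was at 10.4, 9.4, 9.6, 10.0 and 9.5 in PCA+LPS, and at 9.8, 9.6, 9.7 and 9.5 in PCA+NH3+LPS. The PCA group had 9.6, 9.3, 10.2, 9.8 and 9.7, against 10.0, 9.2, 8.8, 9.1 and 9.3 in Sham. All 19 arrays with PCA lay above the Sham mean, and 2 of them lay above every Sham array, because Sham array 1 stood at 10.0. Without that array the other 4 Sham arrays lay between 8.8 and 9.3, with 17 of the 19 PCA arrays above all of them and 2 level with the highest.

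The mean of the 4 PCA groups was 0.44 above Sham on the log2 scale (SE 0.16, 95% interval 0.11 to 0.78), which is 1.36-fold (1.08 to 1.71). This did not pass (unadjusted p = 0.0115, limma adjusted p = 0.765), and Slc38a3 ranked 269 by p of 18161 genes. Of all genes 0.00551% passed in this contrast and 5.94% had an unadjusted p under 0.05. Without Sham array 1 the difference was 0.62 (SE 0.15, unadjusted p = 0.000504, limma adjusted p = 0.508). Without Sham array 3, the lowest at 8.8, it was 0.32 (SE 0.17, unadjusted p = 0.0695, limma adjusted p = 0.679).

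Each PCA group set against Sham gave a difference of like size. It was 0.46 (SE 0.20, limma adjusted p = 0.816) in PCA+NH3, and 0.50 (SE 0.20, limma adjusted p = 0.588) in PCA+LPS. It was 0.37 (SE 0.22, limma adjusted p = 0.992) in PCA+NH3+LPS, and 0.44 (SE 0.20, limma adjusted p = 0.986) in PCA. Without Sham array 1 they were 0.64 (limma adjusted p = 0.43) in PCA+NH3, 0.68 (limma adjusted p = 0.324) in PCA+LPS, 0.55 (limma adjusted p = 0.966) in PCA+NH3+LPS and 0.62 (limma adjusted p = 0.994) in PCA. These 4 differences share the same Sham arrays, so they are not separate observations. Relative to PCA, which the 3 infused groups share as their control, the differences of Slc38a3 were 0.02 (95% interval -0.40 to 0.44) for PCA+NH3, 0.06 (-0.36 to 0.48) for PCA+LPS and -0.07 (-0.51 to 0.37) for PCA+NH3+LPS. In the order of group means, Sham lay 0.37 below its neighbour PCA+NH3+LPS, slightly more than the residual SD of 0.35, and the 4 PCA means lay between 9.65 and 9.78, with gaps below that SD.

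Marker lists of astrocytes, the main site of Slc38a3 in brain, and of microglia were set beside it. The mean of 10 astrocyte and Bergmann glia markers was 0.04 ± 0.13 in PCA+NH3, -0.03 ± 0.15 in PCA+LPS, -0.003 ± 0.07 in PCA+NH3+LPS and -0.02 ± 0.20 in PCA, against 0.02 ± 0.27 in Sham. Of these 10 genes 4 were higher in the PCA groups than in Sham, and 6 without Sham array 1. Without Sham array 1 the astrocyte mean was -0.10 ± 0.11 in the other 4 Sham arrays, beside -0.004 ± 0.14 in the 19 PCA arrays. The mean of 8 microglia markers was -0.09 ± 0.18 in PCA+NH3, 0.20 ± 0.26 in PCA+LPS, -0.01 ± 0.13 in PCA+NH3+LPS and 0.05 ± 0.26 in PCA, against -0.16 ± 0.37 in Sham. Single arrays ran from -0.36 to 0.12 in PCA+NH3, from -0.20 to 0.48 in PCA+LPS, from -0.12 to 0.12 in PCA+NH3+LPS and from -0.13 to 0.50 in PCA, against -0.43 to 0.47 in Sham. Of the 8 microglia genes 7 were higher in the PCA groups than in Sham, and 8 without Sham array 1, and the lowest level of any of them on an array was 4.8. Without Sham array 1 the microglia mean was -0.31 ± 0.15 (n = 4) in Sham, beside 0.04 ± 0.23 in the 19 PCA arrays. The list ran in the same direction as Slc38a3, and over the 24 arrays the list and the gene correlated (Pearson r = 0.66, permutation p = 0.00049, adjusted p = 0.00273, and Spearman rho = 0.59, permutation p = 0.00321, adjusted p = 0.025). Without the 2 arrays farthest from the Slc38a3 median, r was 0.57. With the astrocyte mean Slc38a3 had r = 0.58 (permutation p = 0.00303, adjusted p = 0.0107), rho = 0.54 (permutation p = 0.00714, adjusted p = 0.0391) and r = 0.54 without those 2 arrays. The mean of 5 endothelial markers was 0.02 ± 0.17 in the 19 PCA arrays, against -0.06 ± 0.31 in Sham and -0.19 ± 0.14 in Sham without array 1, with 4 of 5 genes higher in the PCA groups either way. Its r with Slc38a3 was 0.46 (permutation p = 0.0224, adjusted p = 0.0506), with rho = 0.40 (permutation p = 0.0538, adjusted p = 0.127) and r = 0.41 without those 2 arrays. With the oligodendrocyte mean Slc38a3 had r = 0.50 (permutation p = 0.0129, adjusted p = 0.0315), rho = 0.49 (permutation p = 0.0163, adjusted p = 0.0636), r = 0.45 without those 2 arrays and r = 0.75 after group means were removed. After group means were removed r was also 0.72 with the astrocyte mean, 0.64 with the microglia mean, 0.45 with the endothelial mean and -0.64 with the granule cell mean. Before that removal the granule cell mean had r = -0.43 (permutation p = 0.0392, adjusted p = 0.0752) and rho = -0.39 (permutation p = 0.0629, adjusted p = 0.139). All 8 granule cell genes were higher in the PCA groups than in Sham, and all 8 lower without Sham array 1. The oligodendrocyte mean was -0.03 ± 0.29 in the 19 PCA arrays, against 0.11 ± 0.59 in Sham and -0.13 ± 0.25 in Sham without array 1. The part of any of these cell types in the Slc38a3 difference was not tested.

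The Slc1 family divides by cell type in the cerebellum. Slc1a3 encodes GLAST, the main glutamate transporter of Bergmann glia, Slc1a2 encodes the astrocytic transporter GLT1, and Slc1a6 encodes EAAT4, which sits on Purkinje cell spines. Slc1a3 was at 11.30 ± 0.10 in PCA+NH3, 11.32 ± 0.15 in PCA+LPS, 11.33 ± 0.10 in PCA+NH3+LPS and 11.22 ± 0.08 in PCA, against 11.28 ± 0.18 in Sham. Over all arrays it ranged from 11.0 to 11.5, and its SD of 0.12 was larger than that of only 22.1% of all genes. The 4 PCA groups together differed from Sham by 0.01 (95% interval -0.13 to 0.15), the ammonia contrast gave 0.04 (-0.08 to 0.17) and the LPS contrast 0.06 (-0.06 to 0.19). The ammonia contrast is the mean of both groups with ammonia minus the mean of PCA and PCA+LPS, 9 arrays against 10, and the LPS contrast is built in the same way.

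Slc1a2 was at 11.1, 10.7, 10.7, 10.7 and 10.6 in PCA+NH3. It was at 10.9, 10.4, 10.6, 10.6 and 10.6 in PCA+LPS, and at 10.6, 10.7, 10.9 and 10.5 in PCA+NH3+LPS. The PCA group had 10.6, 10.7, 11.1, 10.4 and 10.3, against 11.5, 10.6, 10.4, 10.6 and 10.7 in Sham. The highest value of all was Sham array 1, and the groups overlapped. The 4 PCA groups differed from Sham by -0.09 (SE 0.13, 95% interval -0.36 to 0.18), and by 0.09 without Sham array 1, so the sign rested on that array. The ammonia contrast was 0.10 (SE 0.12, 95% interval -0.15 to 0.35), and the LPS contrast was -0.04 (SE 0.12, 95% interval -0.29 to 0.21).

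Slc1a6 was at 7.8, 8.9, 8.2, 8.6 and 8.5 in PCA+NH3. It was at 8.1, 8.6, 8.3, 8.2 and 8.2 in PCA+LPS, and at 8.4, 8.2, 8.4 and 8.5 in PCA+NH3+LPS. The PCA group had 8.5, 8.7, 7.5, 8.3 and 8.5, against 7.4, 8.6, 8.8, 8.5 and 8.1 in Sham. Its 2 lowest values were those of Sham array 1 and PCA array 3, and all groups overlapped. Its SD over the 24 arrays, 0.37, was larger than that of 95.6% of all genes, but the 5 group means spanned only 0.12. With that spread the ammonia contrast of 0.10 had a 95% interval from -0.25 to 0.44 and the LPS contrast of -0.02 one from -0.37 to 0.32, and neither contrast passed.

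The system A carriers Slc38a1 and Slc38a2 bring glutamine into neurons, and Slc38a2 is also known to be induced when amino acids are scarce. The 2 genes lie near each other on chromosome 7 of the rat assembly GRCr8. Slc38a1 ranged from 10.3 to 10.7 over all arrays, and its group means from 10.40 in PCA+NH3+LPS to 10.46 in PCA+NH3 and in Sham. Its ammonia contrast was 0 with a 95% interval from -0.11 to 0.11, and the 4 PCA groups differed from Sham by -0.03 (-0.15 to 0.09). Slc38a2 ranged from 9.8 to 10.3, with 10.06 ± 0.05 in PCA+NH3, 10.02 ± 0.13 in PCA+LPS, 10.03 ± 0.10 in PCA+NH3+LPS and 10.10 ± 0.19 in PCA, against 10.12 ± 0.11 in Sham. Its 4 PCA groups differed from Sham by -0.07 (95% interval -0.20 to 0.07), and its LPS contrast was -0.06 (-0.18 to 0.07). The ammonia contrast of Slc38a2 was -0.02 (-0.14 to 0.11), so the 95% intervals of both carriers were narrow beside that of Slc38a3.

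Glud1 encodes mitochondrial glutamate dehydrogenase, which links glutamate to ammonia and 2-oxoglutarate. It was at 10.3, 10.0, 9.8, 9.9 and 9.8 in PCA+NH3. It was at 10.0, 9.8, 9.8, 9.7 and 9.9 in PCA+LPS, and at 9.9, 9.8, 10.1 and 9.6 in PCA+NH3+LPS. The PCA group had 9.9, 10.2, 10.2, 9.6 and 9.5, against 10.8, 9.9, 9.7, 9.8 and 9.8 in Sham. Sham array 1 was above the next highest array, at 10.3, and without it the remaining 4 Sham arrays lay between 9.7 and 9.9, inside the range of the PCA groups. The 4 PCA groups differed from Sham by -0.12 (SE 0.14, 95% interval -0.40 to 0.16) with all arrays and by 0.08 without Sham array 1. The ammonia contrast was 0.05 (95% interval -0.21 to 0.30) and the LPS contrast -0.08 (-0.33 to 0.18).

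Got1 and Got2 encode the cytosolic and mitochondrial aspartate aminotransferases, which exchange amino groups between glutamate and aspartate and run the malate-aspartate shuttle. Got1 was at 10.72 ± 0.19 in PCA+NH3, 10.80 ± 0.19 in PCA+LPS, 10.70 ± 0.14 in PCA+NH3+LPS and 10.72 ± 0.11 in PCA, against 10.82 ± 0.23 in Sham. Got2 was the least variable of the 9 genes, between 9.3 and 9.7, with an SD larger than that of only 6.52% of all genes. It was at 9.54 ± 0.09 in PCA+NH3, 9.50 ± 0.12 in PCA+LPS, 9.58 ± 0.10 in PCA+NH3+LPS and 9.48 ± 0.11 in PCA, against 9.58 ± 0.04 in Sham. Got1 was highest in Sham on average, but its groups overlapped, as did those of Got2. Within groups, Got1 was highest on array 1 of each. It was there at 10.9 in PCA+NH3, 11.1 in PCA+LPS, 10.9 in PCA+NH3+LPS, 10.9 in PCA and 11.1 in Sham. Got2 was highest on array 1 of each PCA group, at 9.7 in the infused groups and 9.6 in PCA. In Sham its array 1 shared 9.6 with other arrays. The 4 PCA groups differed from Sham by -0.09 (95% interval -0.27 to 0.10) for Got1 and by -0.06 (-0.17 to 0.06) for Got2, and neither passed (limma adjusted p = 0.918 and 0.913). The Got2 ammonia contrast of 0.07 had a 95% interval from -0.04 to 0.17, with the 9 ammonia arrays between 9.5 and 9.7 and the other 10 between 9.3 and 9.7.

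**Figure D2:**
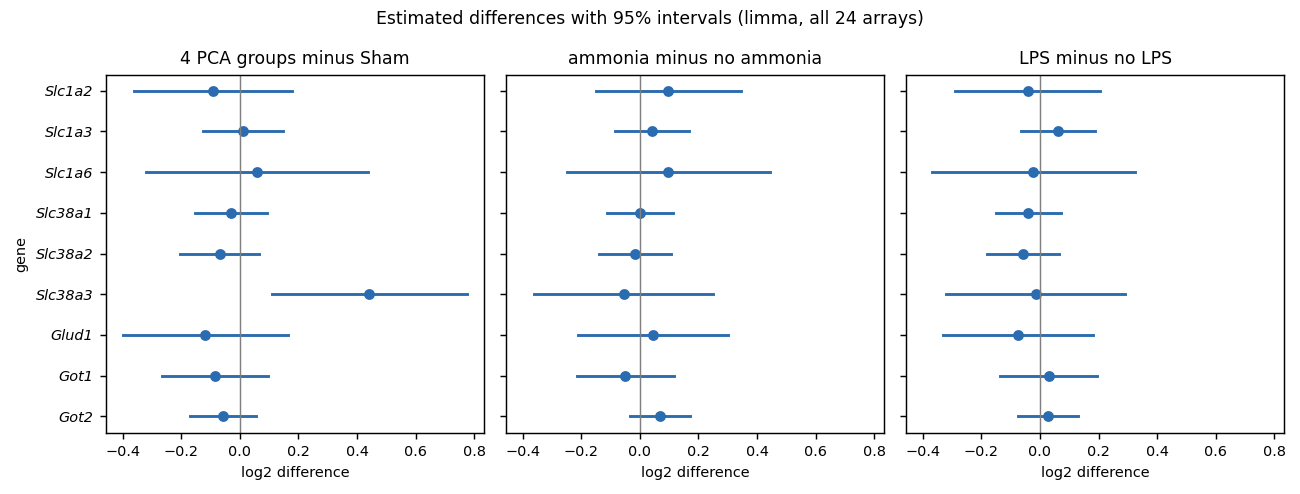
Log2 differences (x axis) of the 9 genes (y axis) with 95% intervals from the limma fit, for the 4 PCA groups minus Sham, ammonia minus no ammonia and LPS minus no LPS. The interval excludes 0 only for Slc38a3 against Sham (0.11 to 0.78), and no interval for ammonia reaches beyond -0.36 or 0.44.

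Across the 9 genes the direction was mixed. Against Sham, 3 were higher and 6 lower in the mean of the 4 PCA groups, with a median of -0.06 beside -0.003 for all genes. Without Sham array 1 the sign turned for 5 of the 9, namely Glud1 (0.08), Slc1a2 (0.09), Slc1a3 (-0.06), Slc1a6 (-0.16) and Slc38a1 (0.03), and none of the 9 passed. Got1 was then at -0.02, Got2 and Slc38a2 both at -0.05. The directions of those 5 differences thus depended on 1 array. For ammonia 5 differences were positive, 3 negative and 1 was 0, with a median of 0.04 beside -0.005 for all genes. For LPS 3 were positive and 6 negative, with a median of -0.02 beside 0.003 for all genes. The size of the differences was also near the background: the median absolute difference was 0.07 in the 9 genes and 0.06 in all genes for PCA against Sham over the 4 groups, and 0.05 in both for ammonia. The combination of ammonia and LPS was not distinguishable from the sum of both for any member, with interaction terms between -0.15 and 0.05 and the widest interval, of Slc1a6, from -0.70 to 0.69.

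In 8 of the 9 genes no neighbouring group means differed by more than the residual SD, and several genes shared their variation between arrays. Glud1 and Slc1a2 moved together over the 24 arrays (Pearson r = 0.92, permutation p = 1e-05, adjusted p = 0.000234, and Spearman rho = 0.82, permutation p = 1e-05, adjusted p = 0.00117, where 1e-05 is the smallest p that 100000 permutations can give). Their r was 0.81 without the 2 arrays farthest from the Glud1 median and 0.92 after group means were removed. Slc1a2 and Slc1a6 ran in opposite directions, with r = -0.77 (permutation p = 5e-05, adjusted p = 0.000585), rho = -0.53 (permutation p = 0.00736, adjusted p = 0.0391) and r = -0.51 without the 2 farthest arrays. Slc38a3 was also opposite to Slc1a6, with r = -0.64 (permutation p = 0.00086, adjusted p = 0.00402), rho = -0.65 (permutation p = 0.0009, adjusted p = 0.0106) and r = -0.57 without the 2 farthest arrays. Of the 36 pairs of members, 15 passed for Pearson r among 117 relations computed, with p adjusted over all 117. The share of all gene pairs that would pass was not computed. Some pairs leaned on Sham array 1. Without it r fell from 0.64 to 0.42 for Glud1 with Slc38a1, and from 0.50 to 0.32 for Slc1a3 with Slc1a6. Neither pair passed for Spearman rho (permutation, adjusted p = 0.115 and 0.363), while Glud1 with Slc1a2 kept r = 0.86 without that array. Other pairs that passed for r did not pass for rho either. These were Glud1 with Got1 and with Slc1a6 (permutation, adjusted p = 0.0727 and 0.379). Got1 with Slc1a2 and with Slc38a1 were 2 more (permutation, adjusted p = 0.106 and 0.167), as was Slc1a2 with Slc38a3 (permutation, adjusted p = 0.0784). All these values come from the same 24 arrays and their common normalization.

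**Figure D3:**
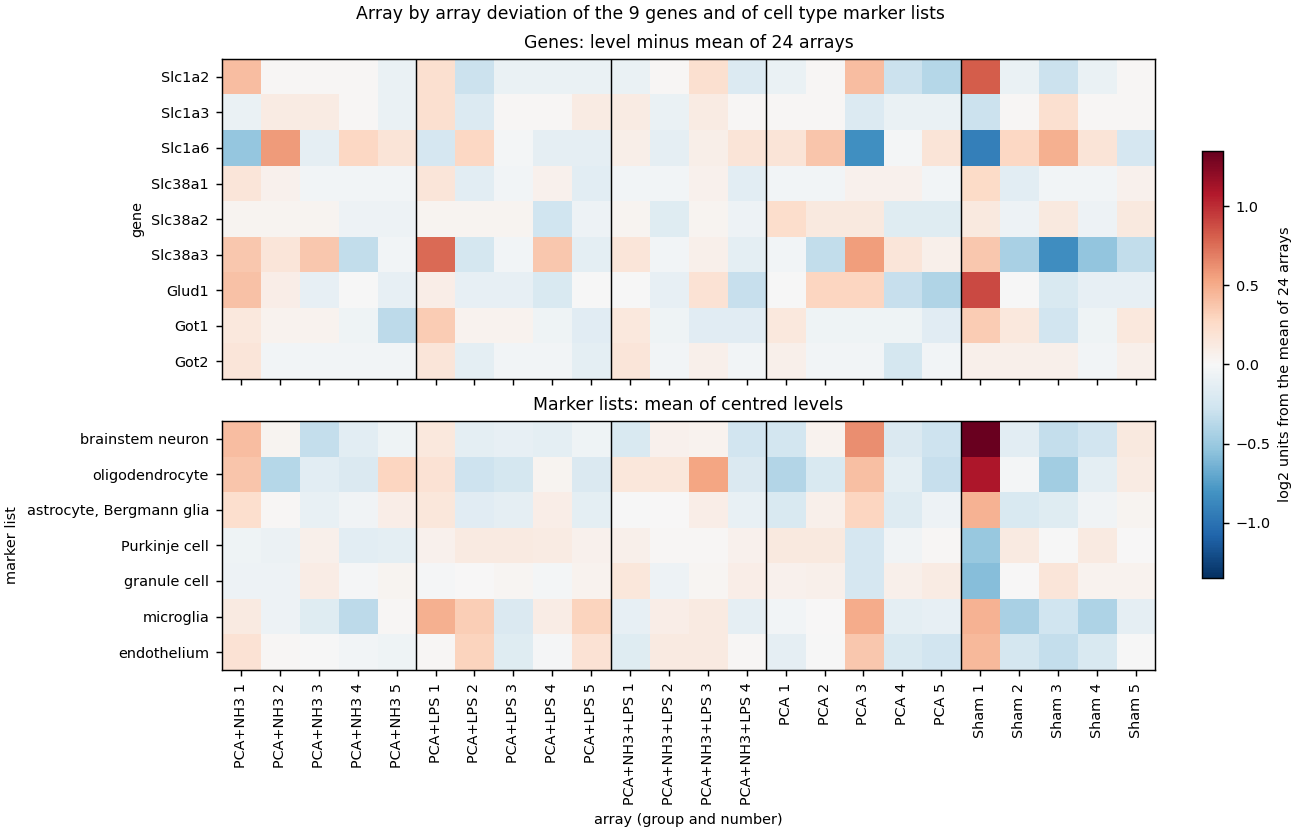
Deviation from the mean of 24 arrays, in log2 units (colour), of the 9 genes (top rows) and of 7 marker lists (bottom rows) in each array (columns, by group). Sham array 1 is high in Slc1a2, Glud1 and the brainstem list (1.33) and low in Slc1a6 and the Purkinje and granule cell lists, and PCA array 3 shows the same pattern at a smaller size.

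Slc1a2 moved with Glud1 and opposite to Slc1a6 over the arrays. For Glud1 with Slc1a6, r was -0.58 (permutation, adjusted p = 0.0143) but rho was -0.24 (permutation, adjusted p = 0.379). Without Sham array 1 that r was -0.34. The start regions of these 3 genes, which followed the array pattern above most closely, are shown here. Each is the 300 bases from 250 before to 50 after the RefSeq start in assembly GRCr8, written in the direction of transcription, with matches to the GC box motif GGGCGG on either strand in capitals. Slc1a2 lies at chr3:109459859-109460158 (plus strand), Glud1 at chr16:9646319-9646618 (plus strand) and Slc1a6 at chr7:11520958-11521257 (minus strand).
Slc1a2: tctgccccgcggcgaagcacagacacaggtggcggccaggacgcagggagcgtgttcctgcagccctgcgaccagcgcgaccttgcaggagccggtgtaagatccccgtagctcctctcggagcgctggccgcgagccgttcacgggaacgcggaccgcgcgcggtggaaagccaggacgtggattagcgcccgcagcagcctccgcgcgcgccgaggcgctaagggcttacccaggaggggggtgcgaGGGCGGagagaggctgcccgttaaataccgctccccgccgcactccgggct
Glud1: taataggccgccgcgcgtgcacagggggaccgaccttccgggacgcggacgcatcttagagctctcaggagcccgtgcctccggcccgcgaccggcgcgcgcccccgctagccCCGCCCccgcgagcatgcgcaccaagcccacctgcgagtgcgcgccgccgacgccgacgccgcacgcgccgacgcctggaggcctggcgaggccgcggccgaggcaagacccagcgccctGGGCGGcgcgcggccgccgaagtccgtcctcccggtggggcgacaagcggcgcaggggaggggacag
Slc1a6: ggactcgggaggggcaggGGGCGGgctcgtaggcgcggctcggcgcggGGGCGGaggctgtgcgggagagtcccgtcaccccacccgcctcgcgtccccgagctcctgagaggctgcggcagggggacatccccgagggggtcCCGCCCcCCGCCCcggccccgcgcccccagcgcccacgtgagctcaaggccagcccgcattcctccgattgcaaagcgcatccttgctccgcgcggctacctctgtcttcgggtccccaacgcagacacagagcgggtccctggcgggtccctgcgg
The Slc1a2 window held 1 match, the Glud1 window 2 and the Slc1a6 window 4, with no overlaps, and 33.1% of 33469 such windows of the rat table hold at least 1. None of the 3 windows held CCAAT (37.5% of windows) or the TATA box letters TATAAA (14.2%), searched on both strands. The share of G and C was 71.0% for Slc1a2, 78.0% for Glud1 and 75.7% for Slc1a6.

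The same array pattern ran along several marker lists. Of 81 relations between a member and a marker list, 34 passed for Pearson r. The share of all genes that would pass with these lists was not computed. Some relations leaned on Sham array 1. Without it r went from -0.63 to -0.23 for Glud1 with the Purkinje cell mean, and from 0.63 to 0.45 for Slc1a3 with the granule cell mean. Neither passed for Spearman rho (permutation, adjusted p = 0.456 and 0.126), while Slc1a2 with the brainstem mean kept r = 0.84 without that array. Other relations that passed for r also failed for rho (permutation, adjusted p from 0.0564 to 0.365). They were all those of Slc1a3, and the Purkinje cell mean with Slc1a2 and Slc1a6. The granule cell mean with Slc1a6 and Slc38a1 and the oligodendrocyte mean with Glud1 and Slc38a3 failed too. So did the microglia mean with Glud1, Slc1a2 and Slc1a6, and the endothelial mean with Slc1a6. With the brainstem mean, Slc1a2 had r = 0.91 (permutation p = 1e-05, adjusted p = 0.000234), rho = 0.76 (permutation p = 2e-05, adjusted p = 0.00117) and r = 0.79 without the 2 farthest arrays. Glud1 had r = 0.88 (permutation p = 2e-05, adjusted p = 0.000292), rho = 0.69 (permutation p = 0.00029, adjusted p = 0.00565) and r = 0.68 without the 2 farthest arrays. Slc1a6 had r = -0.79 (permutation p = 2e-05, adjusted p = 0.000292), rho = -0.54 (permutation p = 0.00783, adjusted p = 0.0398) and r = -0.51 without the 2 farthest arrays. Slc38a3 had r = 0.46 with the brainstem mean (permutation p = 0.0269, adjusted p = 0.0593), rho = 0.38 (permutation p = 0.0657, adjusted p = 0.14) and r = 0.67 after group means were removed. Other lists were about as close. Slc1a2 had r = 0.87 with the astrocyte mean (permutation p = 1e-05, adjusted p = 0.000234), 0.84 with the mean of 10 oligodendrocyte markers (permutation p = 3e-05, adjusted p = 0.00039) and -0.84 with the mean of 8 granule cell markers (permutation p = 2e-05, adjusted p = 0.000292), with rho of 0.74, 0.64 and -0.64 for those lists (permutation p = 9e-05, 0.00092 and 0.00087, adjusted p = 0.00351, 0.0106 and 0.0106). Without the 2 farthest arrays these r were 0.72, 0.66 and -0.57. Slc1a6 had r = -0.78 with the oligodendrocyte mean (permutation p = 1e-05, adjusted p = 0.000234), rho = -0.69 (permutation p = 0.00023, adjusted p = 0.00538) and r = -0.60 without the 2 farthest arrays, of which rho and the last were larger in size than with the brainstem mean. The brainstem mean itself was -0.01 ± 0.27 in PCA+NH3, -0.06 ± 0.12 in PCA+LPS, -0.09 ± 0.16 in PCA+NH3+LPS and -0.01 ± 0.38 in PCA, against 0.15 ± 0.68 in Sham. Of the 8 brainstem markers, Chat, which makes acetylcholine, stayed between 3.9 and 4.5 on all arrays, while Slc17a6 spanned 3.5 to 8.6. The part of tissue sampling in any member's level was not tested.

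**Figure D4:**
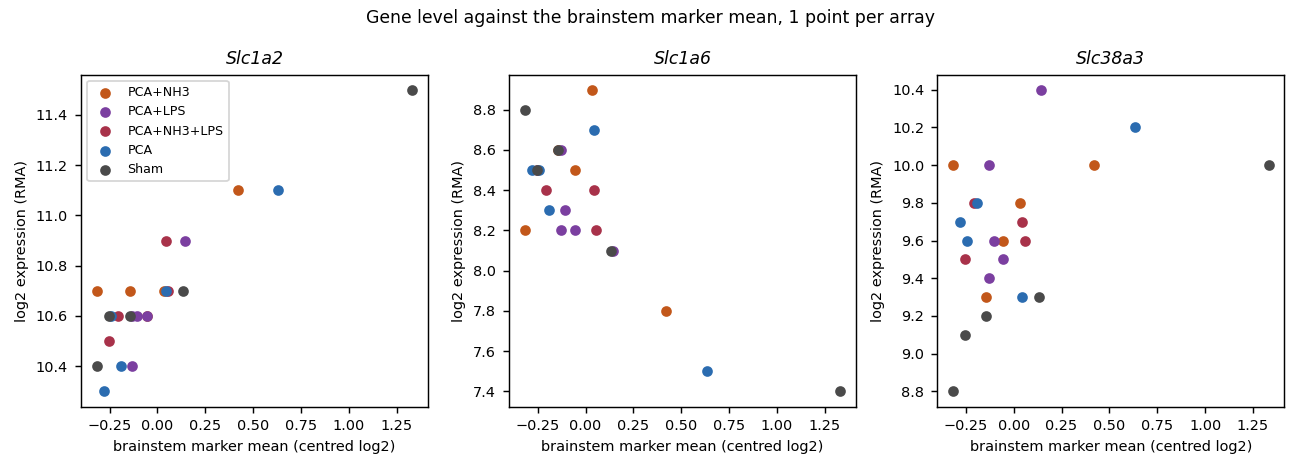
Log2 expression of Slc1a2, Slc1a6 and Slc38a3 (y axes) against the mean of 8 centred brainstem markers (x axis, log2 units), with 1 point per array coloured by group. Slc1a2 is high and Slc1a6 low on the 3 arrays with the highest brainstem mean, and Sham array 1 is the point at 1.33.

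The genes most like each member over the 24 arrays were found among 16169 genes by Pearson r, as a description. For Slc1a2 they were Slc6a9, the glial glycine transporter, at r = 0.95, and Vxn, a neuronal differentiation gene, at 0.95. For Glud1 they were Vxn at 0.93 and Hcn2, a pacemaker channel subunit, at 0.92. Slc1a6 was most like Dna2, a helicase and nuclease of DNA replication, at 0.90, and Btg1, an antiproliferative gene, at 0.87. Slc38a3 was most like Slc43a3, a membrane transporter, and Dchs1, a large cadherin, both at 0.85, and without Sham array 1 these were 0.86 and 0.85. For Slc1a3, Nfib, a transcription factor of glial development, was at 0.77. For Slc38a1 they were Cyb5r2 at 0.87 and Aadat, an aminotransferase of the kynurenine pathway, at 0.86, and for Slc38a2 Kcns2, a potassium channel subunit, at 0.73 and Clip2 at 0.69. For Got1 they were Pfkp, the platelet type of phosphofructokinase, at 0.85 and Micall2 at 0.84, and for Got2 Stx12, an endosomal syntaxin, at 0.77 and Prkra at 0.76.

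In the wider pathway, 51 genes of ammonia and urea, glutamate, glutamine, malate-aspartate shuttle and amino acid transport lists were measured, and 0 of 51 passed in any of the 11 contrasts (limma across all genes), with 0 to 3 at an unadjusted p under 0.05 in each. Glul, Aldh4a1, Slc25a12, Slc25a18 and Rhag were not analysed here. In the ammonia contrast 3 of the 51 had an unadjusted p under 0.05, near the background of 5.59% of all genes. Slc38a9, a lysosomal arginine sensor of the mTORC1 pathway, had 7.08 ± 0.22 in PCA+NH3 and 7.15 ± 0.06 in PCA+NH3+LPS, against 7.26 ± 0.09 in PCA and 7.32 ± 0.11 in PCA+LPS, a difference of -0.18 (SE 0.06, limma adjusted p = 0.755). Gls2, a glutaminase, had a difference of -0.11 (SE 0.05, limma adjusted p = 0.884), with the 9 ammonia arrays between 8.1 and 8.3 and the other 10 between 8.2 and 8.4. Slc25a11, the mitochondrial carrier that exchanges 2-oxoglutarate for malate, had one of 0.11 (SE 0.05, limma adjusted p = 0.884).

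In the LPS contrast the 3 genes of smallest p were Slc38a6, a carrier of the same family, at 0.13 (SE 0.05), Arg1, the liver type of arginase, at -0.27 (SE 0.10), and Nit2, an omega-amidase that works on glutamine-derived keto acids, at -0.26 (SE 0.10), each with a limma adjusted p of 0.997. Nit2 lay between 6.8 and 7.4 in the 9 arrays with LPS and between 7.1 and 7.8 in the 10 PCA arrays without it. Slc38a6 lay between 5.8 and 6.0 against 5.6 to 5.9. Arg1, below the median gene level of 6.33, lay between 4.3 and 4.9 against 4.5 to 5.3. All 3 genes thus overlapped between those arrays. Psat1, Bcat2 and Slc38a5 had the smallest p for the 4 PCA groups against Sham, with limma adjusted p from 0.84 to 0.887. Psat1, which uses glutamate in serine synthesis, was at -0.37 (SE 0.19). Bcat2, the mitochondrial branched-chain aminotransferase, was at 0.13 (SE 0.08), and Slc38a5, another system N carrier, at -0.27 (SE 0.21). Without Sham array 1 these were -0.19 for Psat1, 0.08 for Bcat2 and -0.20 for Slc38a5, with limma adjusted p from 0.883 to 0.90. Of the 51 genes, 25 were higher, 25 lower and 1 equal in that contrast, with a median of 0, and 31 were higher and 20 lower without Sham array 1, with a median of 0.04 and 0 genes passing.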

How the data were processed

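RNA from rat cerebellum was measured on 24 whole-transcript arrays. Per the submitters' processing notes the authors used RMA, and they deposited the resulting log2 values in 2 tables that do not differ in any value, one of them with gene symbols. The values run from 1.5 to 13.5 in steps of 0.1, and array medians lie between 5.6 and 5.7. Background correction and normalization therefore cannot be repeated here.

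Of 29016 probe sets, 19338 carried 1 symbol, 1521 several and 8157 none. Symbols were updated through the RefSeq gene table where it holds them (14126 current, 3362 updated, 1850 kept). For the 817 genes with several probe sets, the one with the highest mean was kept, which left 18161 genes. A group-means model over all 24 arrays was fitted with limma 3.58.1 in R 4.3.3 (lmFit, eBayes), with no filter on dim genes. Its 11 contrasts and the F-test were adjusted over all 18161 genes by the Benjamini-Hochberg method, with a threshold of 0.05. The residual degrees of freedom were 19, and the median standard error was 0.10 for a contrast of 5 arrays with 5 and 0.07 for the ammonia and LPS contrasts. The fit was tested on simulated data. Correlations over arrays used 100000 permutations, with p adjusted over 117 relations. Genes named from the wider lists were those with the 3 smallest p-values in the ammonia, LPS and PCA contrasts, and the genes most like a member were the 2 with the highest Pearson r, with symbols of unnamed loci and of miRNA, olfactory and similar families left out, and 1 of them is not reported here. Promoter windows were read from RefSeq tables of assembly GRCr8, which held 8 of the 9 members and not Slc38a3. The members, the lists and the tests were chosen with earlier results of these data known. The alternatives were cyclic loess, centring on array medians, a filter on dim genes, the mean of all probe sets, an intensity trend with robust estimation, array weights, a replicate block, only the groups compared, 4 arrays left out, and each array left out.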

Additional observations from a re-analysis of the deposited data

Results flagged for a closer look

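An array far from the others of its group was looked for in 45 groups of 4 or 5 values, and 5 were found where chance gives about 1 in 20. Slc1a2 was at 11.5 in Sham array 1, where the other 4 lay between 10.4 and 10.7. Glud1 was at 10.8 on the same array, where the other 4 lay between 9.7 and 9.9. Slc1a2 was at 11.1 in array 1 of PCA+NH3, where the other 4 lay between 10.6 and 10.7. This array had the third highest brainstem marker mean, 0.42, after Sham array 1 and PCA array 3. Got2 was at 9.7 in array 1 of PCA+NH3, where the other 4 were all at 9.5, and at 9.5 in Sham array 4, where the other 4 were all at 9.6. The Got2 values are 1 or a few steps of the rounding to 0.1 away from the rest.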

How the results depend on the processing

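No member passed in any of 3258 values computed for the 99 pairs of gene and contrast, under 24 fits that left out 1 array each and 9 other alternatives, and the smallest adjusted p was 0.324 (Slc38a3, PCA+LPS against Sham). The sign turned in 143 of these values, in 54 of the 99 pairs. Among the contrasts of smallest p of each gene, Glud1 in PCA+LPS against Sham was 0.04 without Sham replicate 1 (leave-one-out range -0.24 to 0.04), and the Slc1a6 ammonia contrast was -0.0025 without PCA replicate 3 (range -0.0025 to 0.17). Slc1a2 had its smallest p in 3 tied contrasts, of which PCA and PCA+LPS against Sham both turned to 0.045 without Sham replicate 1, and PCA+NH3 against PCA did not turn. The cause was not tested beyond the removal of those arrays. Slc38a3 in the 4 PCA groups against Sham kept its sign, from 0.32 without Sham replicate 3 to 0.62 without Sham replicate 1, and was 0.55 with array weights (limma adjusted p = 0.63) and 0.42 without the 4 arrays high in choroid plexus markers (limma adjusted p = 0.919). With a replicate block it was 0.44 (limma adjusted p = 0.527), and the block changed no call of a member. Same-numbered arrays correlated with a median r of 0.10 (-0.47 to 0.57), against -0.01 for other numbers. The numbers were not taken as pairs in the main fit, because no label says that they share a source. As a hint from the data, 12 of 24 arrays correlated best with their own number, and Got1 was highest on array 1 of every group. Whether same-numbered arrays share a batch was not tested. Over all genes, PCA+LPS against Sham called 6 genes and between 0 and 10 with 1 array left out, the ammonia contrast called 3 and between 0 and 4 under other settings, the LPS contrast called 3 and between 1 and 4, the F-test called 2 and between 0 and 7, and the 4 PCA groups against Sham called 1 and between 0 and 1. Against PCA, where 0 genes were called, array weights called 3 in PCA+NH3, 2 in PCA+LPS and 4 in PCA+NH3+LPS. Fits of only the groups compared do not exist for the 4 PCA groups against Sham and the F-test, which use all arrays. Another background correction and a slide block were not run.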

Other observations

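The mean of 10 choroid plexus markers was high on 4 arrays, at 1.24, 2.44 and 3.13 on arrays 1, 2 and 5 of PCA+NH3 and at 2.94 on array 3 of PCA+NH3+LPS, with group means of 1.20 ± 1.62 in PCA+NH3 and 0.22 ± 1.82 in PCA+NH3+LPS, against -0.38 ± 0.42 in PCA and -0.57 ± 0.29 in Sham. On the 3 PCA+NH3 arrays Slc38a3 was at 10.0, 9.8 and 9.6, and on the PCA+NH3+LPS array it was at 9.7, all inside the range of the other PCA arrays. Sham array 1 was also the array with the highest oligodendrocyte marker mean, 1.09. It held the highest Slc38a1 level of the 24, 10.7, shared the highest Got1 level, 11.1, with array 1 of PCA+LPS, and had the lowest level of the Bergmann glia transporter Slc1a3.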
